A study of Mus musculus with 4 samples.

Results

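The enzymes that make, buffer and break down retinoic acid were followed in single cells of the testis of mice at postnatal day 15. The 9 enzyme genes were chosen by symbol from the 32285 genes counted, and all 9 were present in the count tables. Unique molecular identifiers (UMIs) were counted in 4 libraries, 2 from wild-type and 2 from *Meioc*-null pups of the C57BL/6N strain, with 1 testis per pup. Replicate number, batch and littermate pair were the same division of the samples, so each pair held 1 pup of each genotype. The null allele was *Meioc* tm1.1Dpc. Wild-type and null pups alike were heterozygous for *Hspa2* tm1Dix and homozygous for a *ROSA26* tdTomato reporter whose stop cassette was still in place. Loosened interstitium was poured off before the tubules were digested, so Leydig cells, macrophages and stroma were those that stayed with the tubules. The comparison asked which cells held each enzyme, and whether the loss of *Meioc*, a germ-cell gene that acts at the entry into meiosis, went with other levels of them.

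Retinoic acid, the active form of vitamin A, acts through nuclear receptors and is the signal for spermatogonial differentiation and for the start of meiosis. Retinol is stored as esters by LRAT, oxidised to retinaldehyde by RDH10, and oxidised further to retinoic acid by ALDH1A1, ALDH1A2 and ALDH1A3. DHRS3 turns retinaldehyde back into retinol, and CYP26A1, CYP26B1 and CYP26C1 break retinoic acid down. In the testis, somatic cells around and within the tubules as well as germ cells take part in this metabolism.

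The 5′ ends of *Cyp26a1* and *Cyp26b1* are shown because both genes break down the same molecule, whereas their levels were highest in different classes. Each sequence is the gene's own strand from 250 bases before to 50 bases after the RefSeq start on GRCm38.p6, 300 bases in length, in lower case. Capitals mark TATAAA on the gene's strand and the hexamer AGTTCA on either strand, which reads TGAACT where it lies on the opposite strand. The *Cyp26a1* window is chr19:37697558-37697857 on the plus strand, and the *Cyp26b1* window is chr6:84593761-84594060 on the minus strand.
Cyp26a1: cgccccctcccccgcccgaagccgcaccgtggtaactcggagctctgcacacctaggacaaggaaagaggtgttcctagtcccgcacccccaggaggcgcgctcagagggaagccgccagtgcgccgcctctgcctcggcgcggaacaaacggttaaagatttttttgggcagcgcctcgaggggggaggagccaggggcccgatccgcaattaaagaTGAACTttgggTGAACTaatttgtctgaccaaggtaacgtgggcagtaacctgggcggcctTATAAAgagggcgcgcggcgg
Cyp26b1: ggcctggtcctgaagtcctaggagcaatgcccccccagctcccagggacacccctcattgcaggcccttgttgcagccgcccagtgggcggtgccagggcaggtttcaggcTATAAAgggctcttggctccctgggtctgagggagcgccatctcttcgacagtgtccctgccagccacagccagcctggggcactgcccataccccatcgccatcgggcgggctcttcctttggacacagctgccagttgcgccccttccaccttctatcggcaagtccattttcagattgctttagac

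The *Cyp26a1* window held AGTTCA as a direct repeat with 5 bases between the hexamers, on the opposite strand, at positions 219 to 235 of the window. This is the arrangement of half-sites that retinoic acid receptors are known to bind. This pattern occurred in 8 of 32851 RefSeq promoter windows of this length (0.0244%, both strands). Counting AGGTCA and GGGTCA as half-sites too, as well as the hexamer GGTTCA, direct repeats with the same spacing occurred in 32 windows (0.0974%). The *Cyp26b1* window held no hexamer of these kinds. TATAAA stood in 8.32% of windows, the 2 shown among them. It lay after the RefSeq start in *Cyp26a1*, at positions 280 to 285 of the window. In *Cyp26b1* it lay before the RefSeq start, at positions 112 to 117. RefSeq windows were matched for 7 of the 9 genes, and among those only *Cyp26a1* held a direct repeat with a spacing of 1, 2 or 5 bases. A match of letters is a description and was not tied to binding here.

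The libraries held 11986 to 16486 barcodes, of which 6211 to 8105 cells per library remained after filtering, with medians of 11724 to 14585 UMIs. Pairs of libraries shared 10 to 16 cell barcodes, at most 0.258% of the smaller library. Wild-type cells were clustered without the enzyme genes, and the cells of all 4 libraries were placed in the wild-type classes. A *Meioc*-null cell that was unlike every wild-type class was therefore still given one, so within G06 to G08 a change in level and unlike cells in the same class cannot be told apart. The 10 germ-cell clusters, G01 to G10, run from undifferentiated spermatogonia (G01) over differentiating spermatogonia (G02 to G04), a cluster led by haemoglobin genes (G05) and an unnamed cluster led by *Stra8* (G06) to early spermatocytes (G07 and G08), an unnamed cluster led by *Gm49794* and *Fabp9* (G09) and pachytene spermatocytes (G10). G05 had a UMI of 6 of the 7 markers of differentiating spermatogonia in at least 25% of cells, but *Hba-a1*, *Hba-a2*, *Hbb-bs* and *Hbb-bt* led it, so it is called by its number only. G09 and G10 held 0 *Meioc*-null cells. The 8 somatic classes were Sertoli cells, Sertoli cells of low depth, peritubular myoid cells, a cluster led by *Rgs5*, interstitial stroma, Leydig cells, macrophages and vascular endothelium. The clusters of each named somatic type had a UMI of 5 or 6 of its markers in at least 25% of cells. *Meioc* RNA of G06 cells was counted at 633 and 679 CPM without the deletion and at 664 and 642 CPM with it. In G07 it was called higher in *Meioc*-null, at 596 and 554 CPM against 818 and 796 CPM (log2 fold change -0.46, edgeR adjusted p = 0.0306), and in G08 it stood at 451 and 489 CPM against 601 and 661 CPM and was not called. Because the 3′ tags can lie outside the deleted part, this does not check the genotype labels.

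Each level below is in CPM, which is the UMIs of the gene per 1000000 UMIs of the class in 1 library. Values are given for replicates 1 and 2 of each genotype.

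Among the enzymes that oxidise retinaldehyde, *Aldh1a1* (ENSMUSG00000053279, chromosome 19, 20492715 to 20643465, plus strand, GRCm38) was highest in Leydig cells, the source of testosterone. Its level there was 3559 and 3861 CPM in wild type, and *Meioc*-null cells had 4208 and 3343 CPM. In wild type this mean was 6.51-fold over that of the next class, Sertoli cells of low depth, at 642 and 498 CPM, and the ranges were apart. Sertoli cells of full depth followed with 437 and 491 CPM. Peritubular myoid cells (275 and 286 CPM) and interstitial stroma (296 and 210 CPM) overlapped in range. Leydig cells numbered 42 to 87 per library and held 36.3 to 51.2% of the *Aldh1a1* UMIs in the 18 classes, with unnamed cells left out. A UMI of the gene was seen in 96.6 to 98.1% of Leydig cells thinned to 1500 UMIs, against 49.2 to 55.8% of Sertoli cells and 0 to 3.45% of macrophages thinned alike.

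In the 10 germ-cell clusters *Aldh1a1* lay between 2.49 and 10.7 CPM, and in each cluster the libraries of pair 1 lay above those of pair 2. The summed Sertoli markers moved the same way in G01 to G08, at 66.4 to 122 CPM in pair 1 and 31.0 to 70.7 CPM in pair 2. For every 100 Sertoli-marker UMIs, the germ-cell clusters G01 to G08 held 6.48 to 12.3 *Aldh1a1* UMIs, and the 2 Sertoli classes 5.56 to 8.02. How much of the germ-cell signal was free RNA of somatic cells was not tested.

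*Aldh1a2* (ENSMUSG00000013584, chromosome 9, 71215789 to 71296243, plus strand) was found in Sertoli cells and in meiotic germ cells. Sertoli cells held 126 and 109 CPM in wild type, and *Meioc*-null cells had 138 and 149 CPM. Pachytene spermatocytes of G10 held 121 and 108 CPM, so the ranges of the 2 wild-type classes overlapped and neither can be placed first. Along the germ-cell clusters of wild type, the level was 20.5 and 17.9 CPM in G01, 33.9 and 38.5 CPM in G05, 60.2 and 65.8 CPM in G06, and 98.7 and 94.3 CPM in G07. It was lower again in G08 (55.5 and 50.7 CPM) and G09 (72.3 and 60.9 CPM). Myoid cells lay near the bottom of the order, with 4.31 and 3.30 CPM. The share of cells with a UMI after thinning gave the same picture, with 13.6 and 16.8% of wild-type Sertoli cells, 11.4 and 13.6% of G07 cells, 4.66 and 2.08% of G01 cells and 1.06 and 0% of myoid cells.

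*Aldh1a3* (ENSMUSG00000015134, chromosome 7, 66390890 to 66427517, minus strand) was spread over 2 kinds of cells in different ways. Interstitial stroma held 51.4 and 71.3 CPM in wild type, and *Meioc*-null cells had 68.0 and 51.5 CPM. The spermatogonial clusters reached the same range, with 61.5 and 24.8 CPM in G01 and 77.5 and 26.05 CPM in G02 of wild type. These ranges overlapped that of stroma, and without wild-type replicate 2 the highest class was G02 in place of stroma, and under a 5% limit on mitochondrial UMIs it was G03 (61.1 against 59.9 CPM). In G01 to G04, the top 5% of cells held 62.1 to 91.1% of the *Aldh1a3* UMIs of a library, and a single G02 cell of wild-type replicate 1 held 300. In stroma the top 5% of cells held 28.5 to 32.5%, and no cell held more than 6. Few cells of each of these 4 clusters therefore carried most of its counts, whereas in stroma the counts were divided over many cells.

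*Rdh10* (ENSMUSG00000025921, chromosome 1, 16105774 to 16133734, plus strand), which supplies retinaldehyde, was highest in Sertoli cells of full depth at 36.7 and 28.2 CPM in wild type, and *Meioc*-null cells had 50.01 and 43.1 CPM. Sertoli cells of low depth were lower, with 11.3 and 16.3 CPM in wild type (6 and 10 UMIs) and 20.4 and 10.4 CPM in *Meioc*-null. The germ-cell maximum lay at G06, with 26.5 and 27.6 CPM in wild type. This was above G01 (4.02 and 4.48 CPM) and G08 (7.88 and 8.30 CPM), and it overlapped G07 (26.6 and 17.3 CPM). *Rdh10* and *Aldh1a2*, which act one after the other, were thus both highest in Sertoli cells of full depth among the somatic classes and both higher in G06 and G07 than in G01 to G05.

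*Dhrs3* (ENSMUSG00000066026, chromosome 4, 144892827 to 144928209, plus strand), which works against *Rdh10*, was mainly found in somatic cells. Macrophages held 90.3 and 104 CPM in wild type, and *Meioc*-null cells had 161 and 93.0 CPM. Leydig cells were next, with 80.6 and 83.7 CPM in wild type, and *Meioc*-null cells had 62.7 and 63.3 CPM. The *Rgs5* cluster (49.8 and 31.8 CPM) and myoid cells (40.8 and 28.8 CPM) came after these and overlapped in wild type. No germ-cell cluster exceeded 2.35 CPM in any library. Sertoli cells, where *Rdh10* was highest, held 9.26 and 9.48 CPM of *Dhrs3* in wild type.

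*Lrat* (ENSMUSG00000028003, chromosome 3, 82892579 to 82903973, minus strand) was the enzyme whose wild-type levels were highest in late germ cells. Pachytene spermatocytes of G10 held 22.9 and 26.8 CPM and G09 cells 19.8 and 15.3 CPM, against at most 1.70 CPM in G01 to G08 of wild type. A UMI was seen in 75.9 and 76.9% of G10 cells and in 1.52 and 4.42% of wild-type Sertoli cells, unthinned. Thinned to 1500 UMIs these shares were 1.20 and 0% in G10, so the gene was not detectable in most cells at that depth. Stroma (10.4 and 6.13 CPM) and myoid cells (8.46 and 5.01 CPM) overlapped. *Lrat* was not seen in Leydig cells of any library, where 3 UMIs would be 1.51 to 4.27 CPM. It was not seen in macrophages or the *Rgs5* cluster either, where 3 UMIs would be 3.67 to 8.49 and 11.9 to 15.1 CPM. These 2 floors reach the levels of stroma and myoid cells, so a count of 0 there does not show absence.

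**Figure D1:**
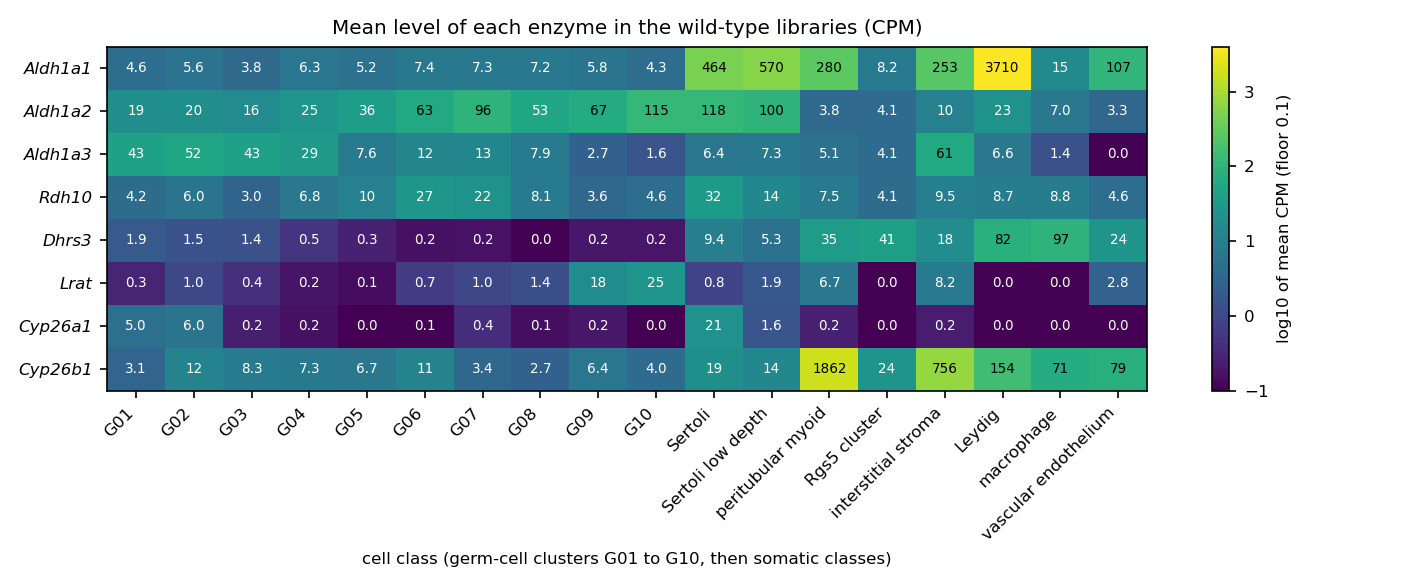
Mean level of 8 enzymes (rows) in the 18 classes (columns) over the 2 wild-type libraries, coloured by log10 of CPM with a floor of 0.1 CPM. *Aldh1a1* peaked in Leydig cells (3710 CPM), *Cyp26b1* in peritubular myoid cells (1862 CPM), *Dhrs3* in macrophages (97.1 CPM) and *Lrat* in G10 (24.8 CPM).

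Of the enzymes that break retinoic acid down, *Cyp26b1* (ENSMUSG00000063415, chromosome 6, 84571414 to 84593908, minus strand) was highest in the wall of the tubule. Peritubular myoid cells held 1830 and 1894 CPM in wild type, and *Meioc*-null cells had 2058 and 1959 CPM, and over the 4 libraries these cells held 78.1 to 86.1% of its UMIs in the 18 classes. The next class, interstitial stroma, held 928 and 583 CPM in wild type, and the wild-type mean of myoid cells was 2.46-fold higher. A UMI was seen in 87.3 to 90.7% of myoid cells after thinning, in 39.0 to 60.9% of stromal cells and in 10.3 to 15.4% of Leydig cells. Leydig cells held 139 to 182 CPM. The *Rgs5* cluster of 24 to 28 cells per library, whose summed myoid markers (21846 to 30490 CPM) were above those of myoid cells (18561 to 21146 CPM), had no *Cyp26b1* UMI in 2 of the 4 libraries and 47.7 and 111 CPM in the others. The 47.7 CPM were 12 UMIs of 1 cell in wild-type replicate 2, and the 111 CPM were 22 UMIs of 2 cells in *Meioc*-null replicate 1.

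Germ cells held 1.93 to 13.0 CPM of *Cyp26b1*, with more in G02 than in G01 in every library. The level in wild-type G01 was 3.86 and 2.34 CPM, and in G02 it was 12.4 and 10.8 CPM. The summed myoid markers were alike in both clusters, at 31.4 and 15.5 CPM in G01 and 28.3 and 14.4 CPM in G02. For every 100 myoid-marker UMIs there were 8.65 to 10.2 *Cyp26b1* UMIs in myoid cells and 35.3 to 74.6 in G02, but also 44.9 to 83.0 in Leydig cells and 137 to 211 in stroma. The summed Leydig markers stood at 42.6 to 47.3 CPM in G01 and 49.3 to 60.04 CPM in G02, and the stromal markers at 20.1 to 29.1 and 9.19 to 16.1 CPM. How much of the germ-cell signal of *Cyp26b1* was free RNA of somatic cells was not tested. In G02, 25.1 to 31.9% of cells had a UMI of the gene, or 1.09 to 1.45% once thinned.

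*Cyp26a1* (ENSMUSG00000024987, chromosome 19, 37697798 to 37701536, plus strand) was found in Sertoli cells and the earliest germ cells. Sertoli cells of full depth held 25.6 and 17.2 CPM in wild type, and *Meioc*-null cells had 23.3 and 14.2 CPM. Those of low depth, with 202 and 198 cells in wild type, held only 0 and 3.26 CPM there (0 and 2 UMIs), and 14.1 and 4.45 CPM in *Meioc*-null. Spermatogonia came next, with 5.30 and 4.68 CPM in G01 and 6.21 and 5.74 CPM in G02 of wild type. From G03 on, no library exceeded 0.689 CPM in any germ-cell cluster. The libraries of both genotypes showed this step between G02 and G03, with 5.07 and 5.93 CPM and then 0.348 and 0.202 CPM in *Meioc*-null. Myoid cells held at most 0.498 CPM. Under a 5% limit on mitochondrial UMIs, the wild-type Sertoli cells left had a level of 0 and G01 came first with 5.97 CPM. That limit left few cells, so this 0 does not show absence.

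*Cyp26c1* (ENSMUSG00000062432, chromosome 19, 37685581 to 37693398, plus strand), which lies next to *Cyp26a1* on the chromosome, had 0 and 4 UMIs over all wild-type cells, and 1 UMI in each *Meioc*-null library. For 6211 cells a count of 0 allows a share of up to 0.0483% with a UMI, as far as counting error goes. No class had enough UMIs for a test.

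**Figure D2:**
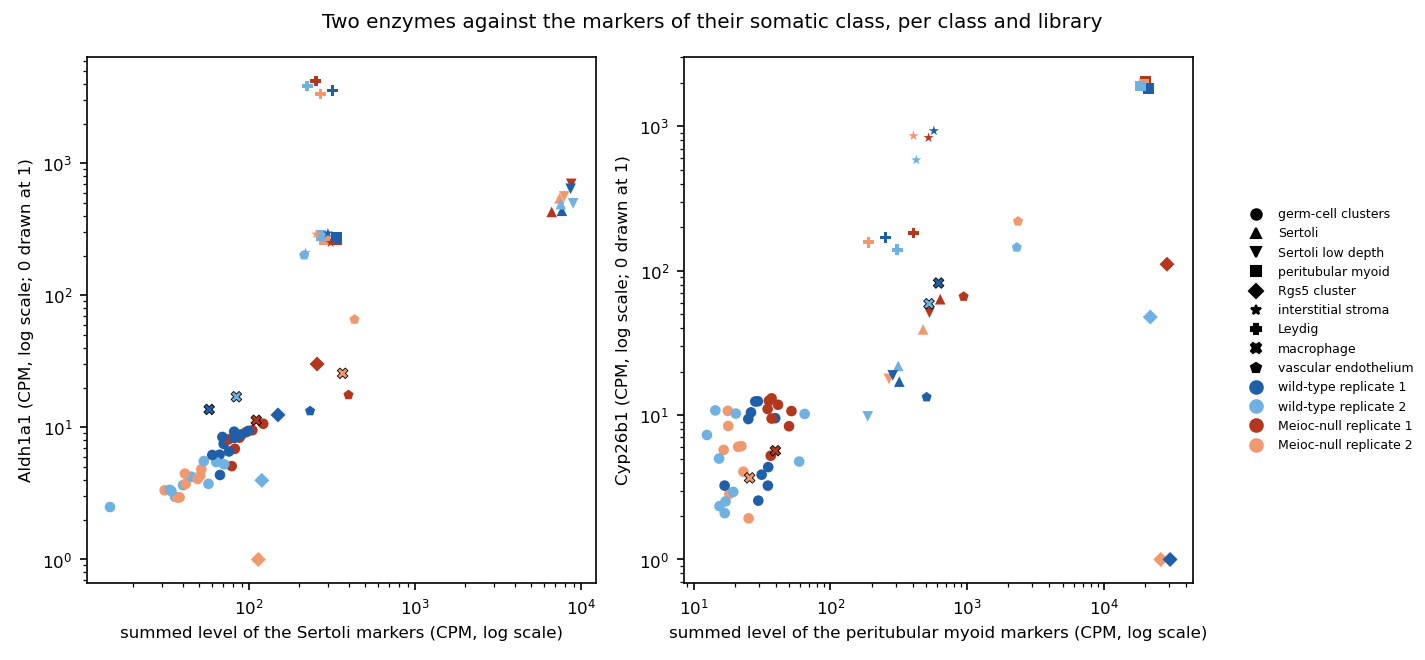
*Aldh1a1* against the summed Sertoli markers (left) and *Cyp26b1* against the summed peritubular myoid markers (right), in CPM on log axes with 0 drawn at 1, with 1 point per class and library. Germ-cell clusters lie at 2.49 to 10.7 CPM of *Aldh1a1* and 1.93 to 13.0 CPM of *Cyp26b1*, far below Leydig cells (3343 to 4208 CPM) and myoid cells (1830 to 2058 CPM).

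**Figure D3:**
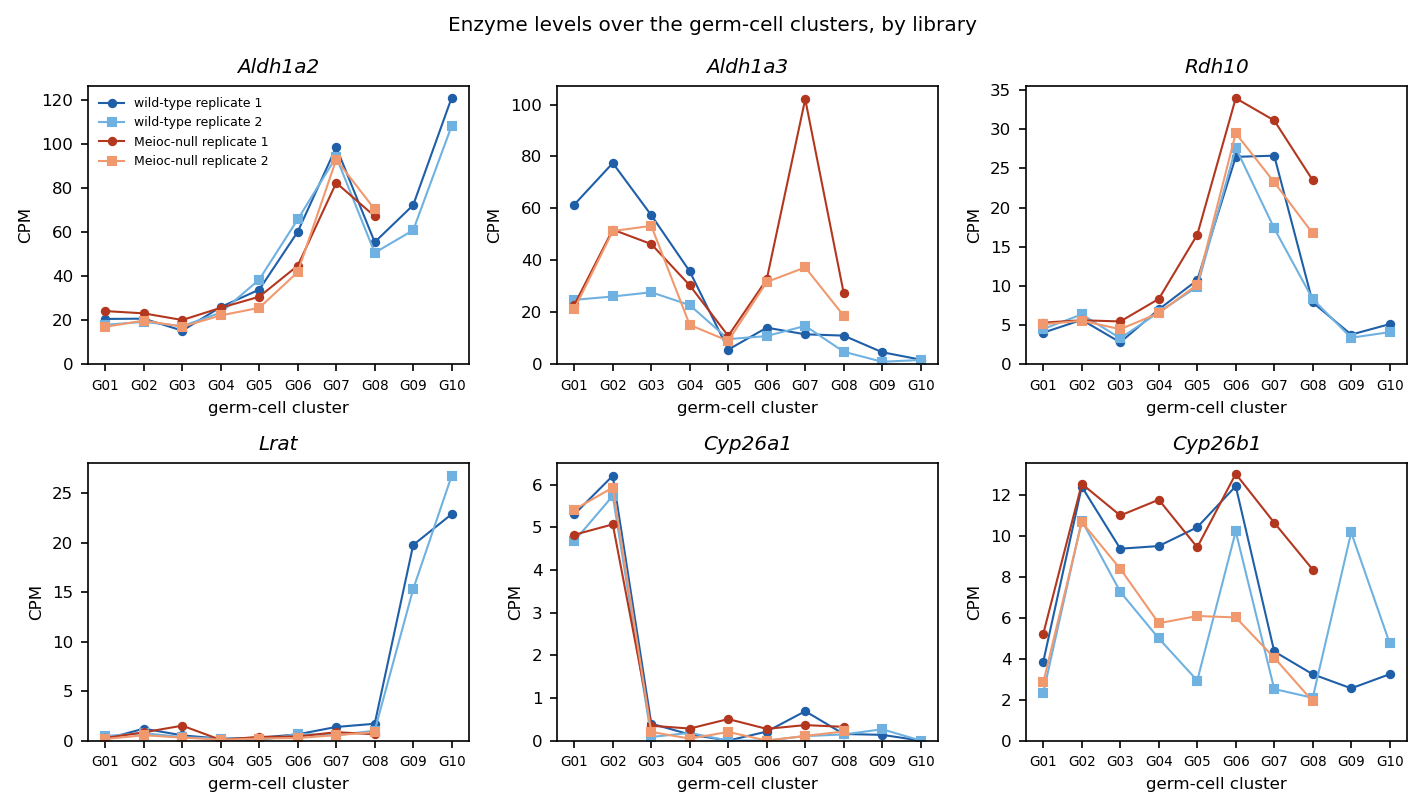
Levels in CPM of 6 enzymes over the germ-cell clusters G01 to G10, with 1 line per library, wild type and *Meioc*-null. *Aldh1a2* reached 94.3 and 98.7 CPM in wild-type G07, *Cyp26a1* stood at 6.21 and 5.74 CPM in wild-type G02 and 0.397 and 0.0846 CPM in G03, and G09 and G10 have no *Meioc*-null points.

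The genotypes were then compared within the 15 classes that had at least 20 cells in every library, with edgeR's quasi-likelihood test on UMIs summed per library and class. All log2 fold changes are wild type over *Meioc*-null, so a negative value is higher in *Meioc*-null. Each SE of a log2 fold change is its absolute value divided by the square root of the test's F statistic, not a fitted standard error. A gene was called at a Benjamini-Hochberg adjusted p under 0.05 and an absolute log2 fold change over 0.1. Of 89 tests of 8 enzymes, 7 were called, 2 of them higher in wild type and the other 5 in *Meioc*-null, and 16 had an unadjusted p under 0.05. With the littermate pair as a block, 10 were called. Over all genes in the same classes, 7% of tests were called, 12.2% had an unadjusted p under 0.05 and 10.9% were called with the block, so the number of enzyme calls as a whole was near the background. Between 2 and 8 of the 9 enzymes had the 20 UMIs needed for a test in a class.

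In the somatic classes where an enzyme was highest, its genotype difference did not pass the test. *Aldh1a1* in Leydig cells had a log2 fold change of -0.03 (SE 0.20), and 1.07% of all genes tested in Leydig cells were called. *Cyp26b1* in myoid cells had -0.05 (SE 0.20), with 0.254% of genes called. *Aldh1a2*, *Rdh10* and *Cyp26a1* in Sertoli cells had -0.22 (SE 0.16), -0.45 (SE 0.18) and 0.26 (SE 0.26), with 0.234% of genes called. *Dhrs3* in macrophages had -0.33 (SE 0.29), with 0.324% of genes called, and *Aldh1a3* in stroma had 0.08 (SE 0.20), with 0.0341% called. *Lrat* in stroma, at 10.4 and 6.13 CPM against 13.2 and 23.3 CPM, did not pass (log2 fold change -1.17, SE 0.36).

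In G01 to G05 no enzyme was called either in the fit without the pair. The shares of all genes called there were 0.0246% in G01, 0.00628% in G02, 0.0717% in G03, 0% in G04 and 0.635% in G05. Few genes of any kind thus passed in that fit. *Aldh1a3* in G04 gave 35.7 and 22.7 CPM against 30.3 and 15.1 CPM. Its ranges overlapped, yet it was called once the pair was a block (log2 fold change 0.45, edgeR adjusted p = 0.0011), where 4.06% of genes were called. The 2 enzymes tested in the *Rgs5* cluster, with 0% of genes called, and the 5 tested in Sertoli cells of low depth, with 0.232% called, did not pass.

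In G06, where 13.7% of all genes were called, 2 of the 6 enzymes tested were called, in opposite directions. *Aldh1a2* was at 60.2 and 65.8 CPM in wild type, and *Meioc*-null cells had 44.8 and 41.8 CPM. Its log2 fold change was 0.59 (SE 0.11, edgeR adjusted p = 0.0055), with pair ratios of 0.43 and 0.65, and the adjusted p was 0.057 without wild-type replicate 2. *Aldh1a3* was at 14.0 and 10.8 CPM in wild type, and *Meioc*-null cells had 32.6 and 31.6 CPM. Its log2 fold change was -1.33 (SE 0.15, edgeR adjusted p = 0.000178), and the call held without each library in turn, but under a 5% limit on mitochondrial UMIs the direction turned (log2 fold change 0.015). The top 5% of cells held 70.7 to 83.2% of its UMIs in G06, and 10.2 and 7.17% of wild-type against 15.6 and 15.3% of *Meioc*-null cells had a UMI. *Rdh10*, at its germ-cell maximum, was not called (log2 fold change -0.18, SE 0.13). The median log2 fold change was 0.22 over the 6 enzymes tested and -0.01 over all genes tested.

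In G07, where 30.9% of genes were called, none of the 6 enzymes tested was called. *Aldh1a3* showed the widest gap, with 11.5 and 14.7 CPM in wild type, and *Meioc*-null cells had 102 and 37.3 CPM. The pair ratios were -3.15 and -1.34 on the log2 scale, but the 2 *Meioc*-null libraries lay far apart. The log2 fold change of -2.30 (SE 0.71) had an edgeR adjusted p of 0.151. In thinned cells, 0.995 and 1.17% of wild-type and 10.3 and 5.19% of *Meioc*-null cells had a UMI. *Aldh1a2* at its peak among G01 to G08 in wild type had a log2 fold change of 0.16 (SE 0.13). *Cyp26b1*, with 4.36 and 2.52 CPM against 10.7 and 4.05 CPM, was called with the pair as a block (log2 fold change -0.96, edgeR adjusted p = 0.00782), where 44.1% of genes were called. The summed myoid markers also differed in G07, at 35.1 and 17.1 CPM against 52.0 and 23.1 CPM, and their part in this was not tested.

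In G08, where 52.3% of genes were called, 3 of the 6 enzymes tested were called, all higher in *Meioc*-null. *Rdh10* was at 7.88 and 8.30 CPM in wild type, and *Meioc*-null cells had 23.5 and 16.7 CPM. Its log2 fold change was -1.18 (SE 0.22, edgeR adjusted p = 5.6e-05), and it was called without each library in turn. The share of cells with an *Rdh10* UMI was 11.7 and 10.8% for wild type against 25.7 and 23.7% for *Meioc*-null, but 1.49 to 2.22% in all 4 libraries after thinning, close to the level of single UMIs. *Aldh1a3* stood at 10.97 and 4.76 CPM against 27.3 and 18.6 CPM. This gave a log2 fold change of -1.54 (SE 0.30, edgeR adjusted p = 0.000553). Without wild-type replicate 2 it was -0.99, and with doublets kept the adjusted p was 0.0694. *Aldh1a2* stood at 55.5 and 50.7 CPM against 67.2 and 70.4 CPM. This gave a log2 fold change of -0.30 (SE 0.13, edgeR adjusted p = 0.0448). The call was lost in 9 alternatives and kept in 5, and among the losses were those without wild-type replicate 1 (edgeR adjusted p = 0.0751), without wild-type replicate 2 (0.171) and without *Meioc*-null replicate 2 (0.344). The median log2 fold change was -0.54 over the 6 enzymes and -0.02 over all genes tested. With 52.3% of all genes called in G08, 3 of 6 enzymes is a share near the background.

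**Figure D4:**
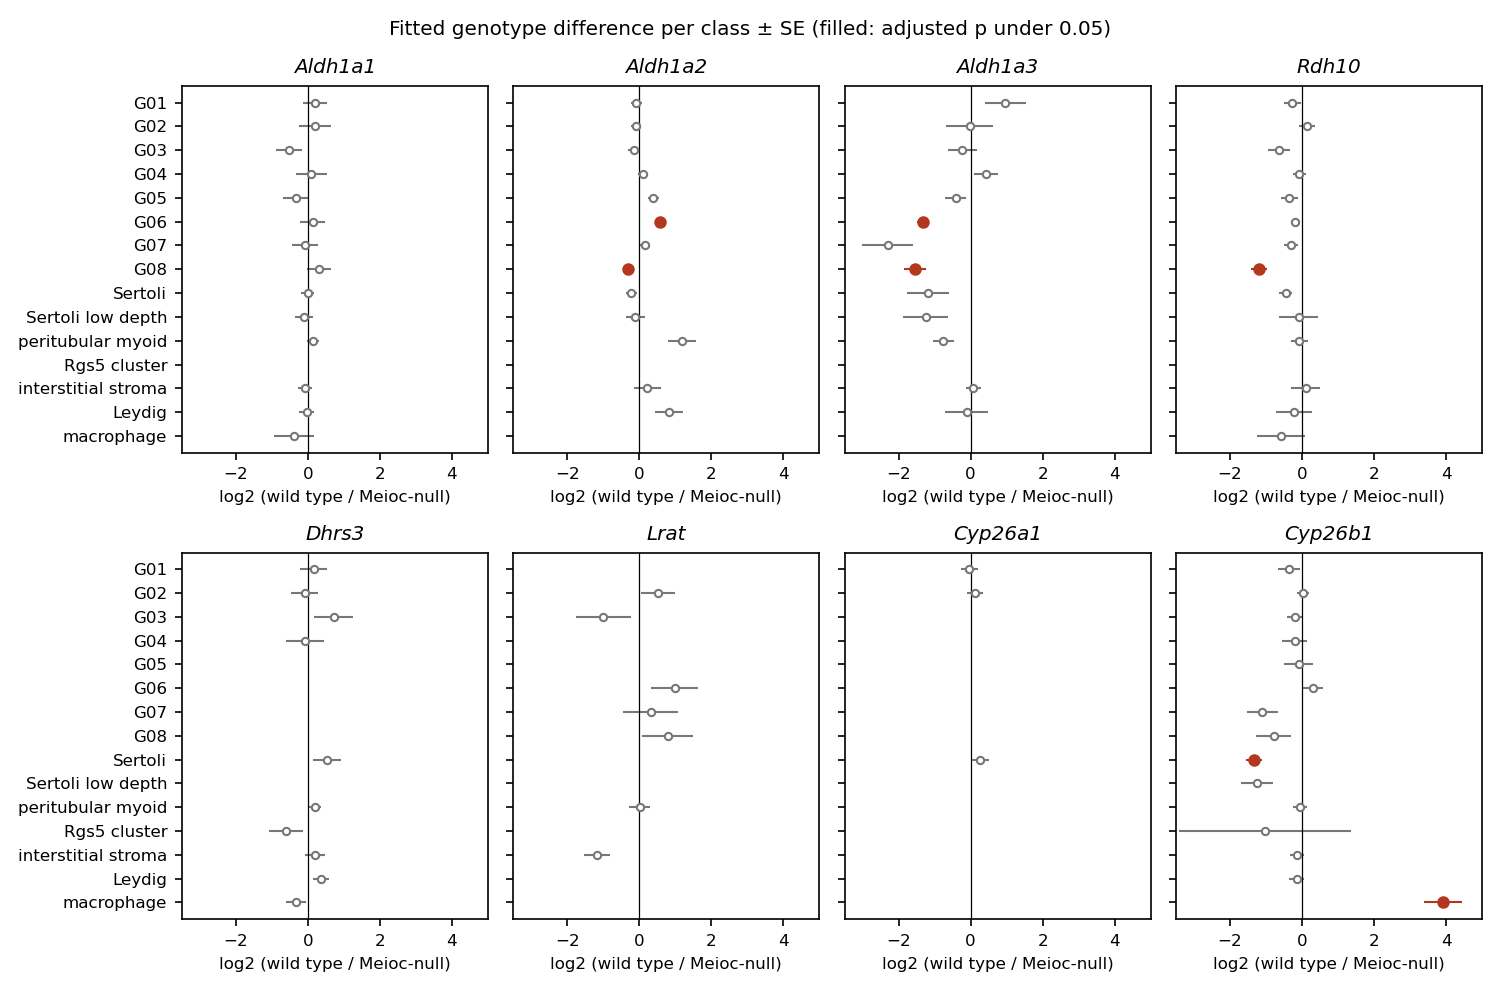
Log2 fold change (wild type over *Meioc*-null) with its SE as a bar for 8 enzymes in each class tested, with filled points for calls. Filled points lie in G06 (*Aldh1a2* and *Aldh1a3*), G08 (*Aldh1a2*, *Aldh1a3* and *Rdh10*), Sertoli cells and macrophages (*Cyp26b1*), and *Aldh1a1* lies between -0.53 and 0.31 in every class tested.

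Whether the genotype difference varied along the germ-cell clusters was tested with all genotype-by-cluster terms of G01 to G08 in 1 edgeR fit. Library and cluster were the other terms. The cluster sums of a library come from the same pup, so they are not independent although each entered as a sample. Of all genes tested, 42.1% were called. *Aldh1a2* (edgeR adjusted p = 0.000146), *Rdh10* (0.00442) and *Aldh1a3* (0.0123) were called, and the other 5 enzymes tested were not, so 3 of 8 enzymes is no more than the background. *Aldh1a2* was called without each library in turn. *Rdh10* was not called without *Meioc*-null replicate 1 (edgeR adjusted p = 0.0786). *Aldh1a3* was not called once any 1 of the 4 libraries was left out, with edgeR adjusted p of 0.0653 to 0.243. The log2 fold change of *Aldh1a2* was -0.08 in G01, 0.59 in G06, 0.16 in G07 and -0.30 in G08, and that of *Rdh10* was -0.27, -0.18, -0.31 and -1.18.

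*Cyp26b1* was called in 2 somatic classes in which it was far below its level in myoid cells. In Sertoli cells its level was 17.0 and 21.9 CPM in wild type, and *Meioc*-null cells had 63.4 and 39.1 CPM. This gave a log2 fold change of -1.34 (SE 0.22, edgeR adjusted p = 0.0102). The summed myoid markers stood at 319 and 314 CPM against 636 and 476 CPM in the same cells, and their part in the result was not tested. Only 10 to 24 Sertoli cells per library had a UMI, and the top 5% of cells held 70.2 to 96.2% of the UMIs. The call was lost without wild-type replicate 1 (edgeR adjusted p = 0.129) and without *Meioc*-null replicate 1 (0.233). With doublets removed at a fixed rate the log2 fold change was -0.11.

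In macrophages *Cyp26b1* was at 82.1 and 59.0 CPM in wild type, and *Meioc*-null cells had 5.66 and 3.67 CPM. This gave a log2 fold change of 3.92 (SE 0.52, edgeR adjusted p = 0.000232). The wild-type values rested on 30 and 38 UMIs, of which 25 and 20 came from 1 cell in each library. The *Meioc*-null values rested on 2 and 3 UMIs and were at or under the floor, as 3 UMIs there would be 8.49 and 3.67 CPM. The summed myoid markers of these macrophages were 618 and 526 CPM for wild type against 39.6 and 25.7 CPM for *Meioc*-null. For every 100 myoid-marker UMIs there were 11.2 to 14.3 *Cyp26b1* UMIs in macrophages of the 4 libraries. With doublets kept the log2 fold change was 1.95 (edgeR adjusted p = 0.208), and without *Meioc*-null replicate 2 the adjusted p was 0.114.

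*Aldh1a3* in Sertoli cells, at 6.67 and 6.10 CPM against 24.4 and 6.02 CPM, was called with the pair as a block (edgeR adjusted p = 0.0105), where 1.65% of genes were called, although its ranges overlapped. In *Meioc*-null replicate 1, a single cell held 52 of the 84 UMIs, and the libraries of pair 2 lay close to each other.

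The enzymes were set beside 47 other genes of retinoid metabolism and signalling, all present in the count tables. In G06, 29 were tested, of which 3 were called with more in wild type and 4 with less. The same numbers were 1 and 12 of 27 in G07 and 3 and 13 of 28 in G08, with median log2 fold changes of -0.12, -0.55 and -0.74. Over all genes tested, 13.7, 30.9 and 52.3% were called in these 3 clusters, so the share of retinoid genes called in G08 was near the background. In the other 12 classes, 3 calls were made in all. *Stra8*, the retinoic acid target needed for meiotic entry, stood at 27.8 and 17.3 CPM in wild-type G08 and at 497 and 469 CPM in *Meioc*-null G08. This gave a log2 fold change of -4.38 (SE 0.17, edgeR adjusted p = 2.6e-17). It was also higher in *Meioc*-null in G03 (log2 fold change -1.59), in G07 (-2.16) and in Sertoli cells of low depth (-2.51), whose germ-cell marker sum was 224 to 463 CPM. *Gm4969*, which encodes the STRA8 partner MEIOSIN, had a log2 fold change of 1.04 in G05 and -4.35 in G08.

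Genes of carriers and receptors were also among the calls. *Crabp2*, which carries retinoic acid to its receptors, was higher in wild type in G06 (9.81 and 8.19 CPM against 4.58 and 4.50 CPM, log2 fold change 1.03, SE 0.22). It was higher in *Meioc*-null in G07, at 7.15 and 6.90 CPM against 1.61 and 1.16 CPM (-2.35). In G08 *Crabp2* was also higher in *Meioc*-null, at 4.18 and 3.21 CPM against 0.155 and 0.361 CPM (-3.47). These wild-type G08 values were near the floor, as 3 UMIs there would be 0.464 and 0.216 CPM. *Fabp5*, another carrier, had a log2 fold change of 0.76 in G06. The receptor gene *Rxra* was higher in *Meioc*-null in G06, at 7.19 and 6.66 CPM against 1.79 and 2.50 CPM (log2 fold change -1.64, SE 0.29). *Rec8*, a meiotic cohesin gene that responds to retinoic acid, was higher in *Meioc*-null in G07 at 26.8 and 19.6 CPM against 5.51 and 2.42 CPM (log2 fold change -2.65, SE 0.30). Of the receptor genes, 4 were tested in each of G06, G07 and G08, and 2 were called in each, all higher in *Meioc*-null. This share was near that of all genes in G08 (52.3%), and 4 genes are too few to set apart from the 13.7 and 30.9% in G06 and G07.

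The genes whose levels were most like those of each enzyme over the 18 classes and 2 wild-type libraries were found by Pearson's r of log2(CPM + 1) among 15345 genes. The 36 points share libraries and cells, so r is a description. *Cyp26b1* was closest to *Htra3* (0.95), *Sct* (0.95) and *Mfap4* (0.94), and *Aldh1a1* to *Acsbg1* (0.96), *Gm49708* (0.95) and *Mmd2* (0.95). *Dhrs3* was closest to *Wls* (0.97), *Idh2* (0.96) and *Tmem176a* (0.96), *Cyp26a1* to *Hrk* (0.89) and *Rasl10b* (0.85), and *Lrat* to *Vit* (0.89), *Elfn2* (0.85) and *Cdkl1* (0.82). The remaining 3 enzymes had lower maxima. *Aldh1a2* was closest to *Rnf34* (0.86), *Cyth2* (0.85) and *Gkap1* (0.85), *Rdh10* to *Nlk* (0.83), *Strip2* (0.77) and *Tspyl2* (0.76), and *Aldh1a3* to *Klf5* (0.80), *Zfp469* (0.78) and *3110045C21Rik* (0.76).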

How the data were processed

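The authors prepared 10x Genomics 3′ v3.1 libraries from 4 testes and deposited matrices of raw UMI counts, not normalized, which per the submitters' processing notes came from Cell Ranger 4.0.0 with the mm10 (GRCm38) genome. The members, gene lists and tests were chosen with earlier results of these data known. Groups, replicate numbers and batches came from the sample records, whose protocol text says that each batch held 1 littermate pair. Deviations from the genotype means of same-numbered libraries correlated at 0.0753 to 0.711 in the 15 classes tested, and at 0.476 to 0.711 in G01 to G08. The main test had no term for the pair, and the fit with the pair as a block is given as an alternative.

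Barcodes with more than 1000 genes and less than 10% mitochondrial UMIs were kept (6334 to 8494 per library). Scrublet (scanpy 1.11.5) removed 1.94 to 4.58% of these at its own threshold. Wild-type cells were clustered (Leiden, 2000 variable genes without the listed retinoid and cell-cycle genes, 30 components, 20 neighbours), and each cell took the most frequent cluster among its 30 nearest wild-type cells. A cluster was named from listed markers if at least 3 of them had a UMI in 25% of its cells. The somatic resolution of 2, the scaling of marker scores, the limits of 0.75 on the ratio of second to best score and of 0.6 on the germ-cell score, the separate *Rgs5* class and the doublet threshold were set after the clusters were seen. *Rgs5* cells also had all 5 myoid markers. The low-depth Sertoli class had medians of 2225 to 2535 UMIs per cell.

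UMIs were summed per library and class (genes with at least 20 UMIs over the 4 libraries) and tested with edgeR 4.0.16 (TMM, robust quasi-likelihood fit, genotype only) in R 4.3.3, with Benjamini-Hochberg adjustment within a class. The fit was tested on simulated counts of G04 and peritubular myoid cells only. These held no pair effect, so the simulation does not cover deviations shared within a pair. DESeq2 1.42.0 was an alternative. Each pup is a separate animal, and with 2 per genotype an SD is a rough measure. Intervals and floors cover counting error only. Shares of cells with a UMI were also taken after thinning each cell to 1500 UMIs. Named genes were all members, the called retinoid genes (at most 3 per class by size), the 3 genes most correlated with each member (1 is not reported here) and *Meioc*. Gene coordinates are from GENCODE vM21, and promoter sequences from RefSeq (GRCm38.p6).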

Additional observations from a re-analysis of the deposited data

Results flagged for a closer look

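For 3 enzymes the difference between wild type and *Meioc*-null varied over the germ-cell clusters G01 to G08, by the test of all genotype-by-cluster terms (edgeR quasi-likelihood test, Benjamini-Hochberg over 19576 genes, of which 42.1% passed). With 8 enzymes tested, 3 is no larger a share than that of all genes. *Aldh1a2* had an adjusted p of 0.000146 and passed without each library in turn, with more in wild type in G06 and more in *Meioc*-null in G08, where the difference lost its call in 9 alternatives and kept it in 5. *Rdh10* had an edgeR adjusted p of 0.00442 and was higher in both *Meioc*-null libraries of G08, and without *Meioc*-null replicate 1 the adjusted p was 0.0786. *Aldh1a3* had an edgeR adjusted p of 0.0123, but 0.0653 to 0.243 when any 1 library was left out.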

How the results depend on the processing

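Over the alternatives, the 7 called differences kept direction and call in 71 refits, kept only the direction in 22 and reversed in 1. That 1 was *Aldh1a3* in G06, with a log2 fold change of 0.015 under a 5% mitochondrial limit, which left few cells and 7 classes to test. Calls of an enzyme in a class that were higher in wild type numbered 2, where an enzyme counts once for each class. They numbered 1 with a filter of 25% of cells, with the 5% limit and with doublets kept. The same held with doublets removed at a fixed rate and with Bonferroni adjustment. Calls higher in *Meioc*-null numbered 5, and 1, 0, 5, 3 and 0 under these settings in the same order. With the replicate block, 3 and 7 such calls were made, and over all genes 20089 calls were made against 12905. None of the 7 calls was lost under the block. Calls over all genes were 176 with the 5% limit, 2074 with Bonferroni adjustment, 9009 with DESeq2 and 10029 to 11289 without each library. Some settings, such as the filter of 25% of cells and the 5% limit, can leave enzymes or classes untested. A lower count of calls there can therefore reflect a missing test and does not by itself show a lost difference. The numbers of tests behind these counts are not given, so shares of calls cannot be compared with those of all genes. Enzymes whose genotype difference varied over germ-cell clusters numbered 3. Under the 5% limit only 4 germ-cell clusters entered this test, against 8 in the main fit, so it asked a narrower question. In that narrower test *Aldh1a3* passed (edgeR adjusted p = 0.00039), while *Aldh1a2* (0.459) and *Rdh10* (0.407) did not.

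Of 8 enzymes, 5 were highest in the class named under the 5% limit and 7 to 8 without each library. Of the levels recomputed in the highest class, 49 moved by less than 1 SD between replicates and 6 by more. Another class came first for 5 enzymes: with the listed genes allowed in the clustering for *Lrat* (G09, with no cluster matched to G10), under the 5% limit for *Cyp26a1* (G01), *Aldh1a3* (G03) and *Aldh1a2* (G10), without wild-type replicate 2 for *Aldh1a3* (G02), on log-normalised means for *Aldh1a2* (G10), and for *Dhrs3*, with Leydig cells first on log-normalised means or with doublets removed at a fixed rate. With the fixed rate, the *Dhrs3* level was 0 CPM in macrophages and 88.5 CPM in Leydig cells. The fixed rate removed most macrophages, so this 0 rests on few cells and does not show absence. The cause of these changes of first class was not tested. *Cyp26b1* in macrophages could not be tested with the fixed rate. Depth limits *Cyp26c1*, *Lrat* and the thinned shares of cells.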
